A study of Mus musculus with 2 samples.

Results

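The cells described here are capillary blood endothelial cells, found among cells sorted from the lymphatic vessels that drain to the submandibular lymph nodes of mice. They were chosen by 7 measured genes: a UMI of at least 2 of Rbp7, Cd300lg and Flt1, a Cd36 UMI, no UMI of Pdgfra or Selp, and a Prox1 value below 4 on the deposited natural-log scale. A UMI (unique molecular identifier) stands for 1 captured RNA molecule. The rule chose 207 of 14300 cells, of which 63 of 6992 came from the aged library and 144 of 7308 from the adult library. The aged library was pooled from 6 mice at 93 weeks of age and the adult library from 6 mice at 12 weeks. All mice were of the FVB/N strain and carried the Prox1-GFP reporter, in which green fluorescent protein follows the lymphatic transcription factor Prox1. Cells carry no label of the mouse or of its sex, so each age is 1 sample, no test between ages was possible, and no p-value is given. The intervals below are 95% intervals for counting error only and do not cover the spread between mice, sorts or libraries.

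Capillary endothelium lines the narrow blood vessels across which tissues exchange oxygen, nutrients and fluid. In muscle and fat it takes up fatty acids with the scavenger receptor Cd36 and carries them with Fabp4, while Gpihbp1 holds lipoprotein lipase at the vessel surface. Its growth and survival depend on VEGF receptors, chiefly Kdr, with Flt1 as a decoy that binds the same ligand, and Plvap forms the diaphragms of its fenestrae and caveolae.

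The tables share barcodes. Of the 13969 barcodes in the aged table, 6977 also stand in the adult table, which is 95.5% of the adult barcodes. Among them 123 passed the capillary rule in the aged table and 108 passed it in both tables. Each of those 108 profiles in the aged table correlated best with its own barcode among the 108 in the adult table, with a median correlation of 0.770, against 0.440 for other barcodes. Adult members with a shared barcode had a median of 0.508 times as many UMIs in the aged table as in the adult table. The shared barcodes were left out of the aged library and counted once, as adult cells, and their origin was not tested. This choice bears on the counts of genes given below. The aged table names its rows by number, and gene names were taken from the row order of the adult table. Over the shared barcodes the log levels of the rows correlated at 0.99 in that order and at no more than 0.167 when the rows were shifted. The aged capillary cells held 375422 UMIs in all, from 2534 to 12539 per cell (median 5817). The adult capillary cells held 985286 UMIs, from 1996 to 16005 per cell (median 6361). In 1 adult cell, 7440 haemoglobin UMIs made up 59.4% of the total, and haemoglobin genes were left out of all named genes.

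The members lay at different distances from the limits of the rule. All 3 of Rbp7, Cd300lg and Flt1 were detected in 46 aged and 112 adult members, and 2 of the 3 in the other 17 aged and 32 adult members. The highest Prox1 value among members was 1.57 in the aged and 1.88 in the adult library, and the 1 adult cell that Prox1 alone kept out had a value of 5.25. A single Cd36 UMI admitted 10 aged and 13 adult members, while 29 aged and 44 adult cells met every other term but had none. Selp alone kept out 16 aged and 39 adult cells, and Pdgfra alone kept out 5 aged and 11 adult cells.

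The label was held against genes that the rule did not use. Kdr was detected in 88.9% of aged and 92.4% of adult members, and Scarb1, the receptor for high-density lipoprotein, in 77.8% and 81.2%. With each cell thinned to 3000 UMIs, which kept 60 aged and 140 adult members and left out 3 and 4, Kdr was detected in 78.3% of aged and 84.3% of adult members, against 1.5% and 1.8% of 1000 fibroblast-like cells drawn per library, a class that should lack it. Scarb1 was at 70.0% and 72.1% after thinning, against 1.1% and 1.6% of fibroblast-like cells. Before thinning, fibroblast-like cells were deeper, with medians of 12554.5 UMIs in the aged and 13450 in the adult library. Both markers stood far above this background in both libraries. That background sets endothelium apart from fibroblasts and does not tell capillary from other endothelial cells. At least 2 of the general endothelial genes Pecam1, Cdh5, Egfl7 and Tie1 were detected without Pdgfra in 61 of 63 aged and 144 of 144 adult members.

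The leukocyte gene Ptprc and the lymphatic genes Reln and Ccl21a had no UMI in any member. The 9 lymphatic genes summed to 95.9 CPM in aged and 159 in adult members, with 4 and 5 of them seen, and at least 1 was found in 41.3% of aged and 45.8% of adult members. CPM, the unit of level used throughout, is the UMIs of a gene in every 1000000 UMIs summed over a class. Flt4, a VEGF receptor of lymphatic endothelium that some blood capillaries also express, gave 66.6 and 69.0 of these and was detected in 31.7% and 37.5% of members. Prox1 was detected in 11.1% and 9.72%, and Nts had no UMI in aged members and 63 UMIs in 2.78% of adult members. Reporter eGFP had a UMI in 4 of 63 aged members (6.35%, exact interval 1.76 to 15.5) and in 9 of 144 adult members (6.25%, 2.90 to 11.5). The deeper fibroblast-like cells carried it in 7.25% of aged and 10.2% of adult cells. After thinning, the shares were 6.67% and 3.57% of members, against 2.7% and 2.5% of fibroblast-like cells. The eGFP level was 34.6 CPM in aged and 21.3 in adult members, against 13.1 and 13.8 in fibroblast-like and 17334 and 16992 in lymphatic-like cells. Over a list of 8 pericyte genes the summed level was 541 CPM in aged and 336 in adult members, with 7 of the 8 listed genes seen in aged members and all in adult members. Rgs5, a pericyte gene, gave 304 and 191 of these and had a UMI in 20.6% and 20.8% of members. The 9 fibroblast genes summed to 242 CPM in aged and 351 in adult members, the 7 smooth muscle genes to 173 and 93.4, the 11 immune genes to 26.6 and 29.4, and the 7 adipocyte genes to 42.6 and 3.04. Larger sums came from the 11 venous genes, at 956 and 863, with a UMI of at least 1 in 88.9% and 89.6% of members. Lrg1 gave 450 and 252 of these. The 13 arterial genes summed to 1422 and 1095, with a UMI of at least 1 in 92.1% and 96.5% of members. The part of these cell types in the age ratios below was not tested.

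Against 3 other classes of endothelial cells in the same libraries, the capillary cells were led by Esm1 and Penk. The other endothelium was made up of 40 aged and 37 adult arterial-like cells, 151 aged and 290 adult venous-like cells, and 88 aged and 232 adult lymphatic-like cells, each chosen by a rule on marker genes. Some of the 498 aged and 870 adult endothelial cells met none of these rules and were left out of this comparison. Those left out can include cells that only the Cd36 term kept from the members. These classes were not free of lymphatic RNA: a Prox1 UMI was found in 74.8% of aged and 69.3% of adult venous-like cells. Since the members were themselves chosen by expression, these differences are a description and carry no test. Esm1, a secreted proteoglycan of endothelium exposed to VEGF, stood at 178 CPM in aged and 367 CPM in adult capillary cells, against 0 and 0.465 in the other endothelium. Penk, which encodes the precursor of enkephalin peptides, stood at 352 and 583, against 3.21 and 0.233. Both genes were near 0 in the other endothelium, but neither was seen in most capillary cells. Esm1 was detected in 23.8% of aged and 36.1% of adult members, and Penk in 28.6% and 43.1%.

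The genes that followed have varied functions. Rgcc, a regulator of the cell cycle and of the response to complement, stood at 1153 CPM in aged and 1134 in adult capillary cells, against 21.4 and 18.2 in the other endothelium. Cxcl12, the chemokine that binds Cxcr4, stood at 3140 and 3082, against 33.7 and 81.0. Col13a1, a membrane-spanning collagen, stood at 258 and 327, against 3.74 and 6.28. Also among the 15 leading genes were Tmem35a, Thrsp, Nr5a2, Rsad2, Map2, Lin7a, Itm2a, Lrrc3b, Robo2 and Grin2a. Lin7a rested on 39.6 CPM or fewer in either library. Gpihbp1, which was not among the leading genes, stood at 360 and 478 in capillary cells, against 4.81 and 25.4. Kdr stood at 908 and 1253, against 288 and 368, and Scarb1 at 554 and 642, against 44.4 and 60.5.

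Mgp, Procr and Vcam1 stood lower in the capillary cells. Mgp, an inhibitor of calcification that is abundant in arteries, stood at 317 CPM in aged and 292 in adult capillary cells, against 8444 and 5880 in the other endothelium. Procr, the receptor of protein C, stood at 58.6 and 45.7, against 975 and 846. Vcam1, which binds leukocyte integrins, stood at 61.3 and 69.0, against 1175 and 767. Each of these differences had the same direction in both libraries.

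**Figure D1:**
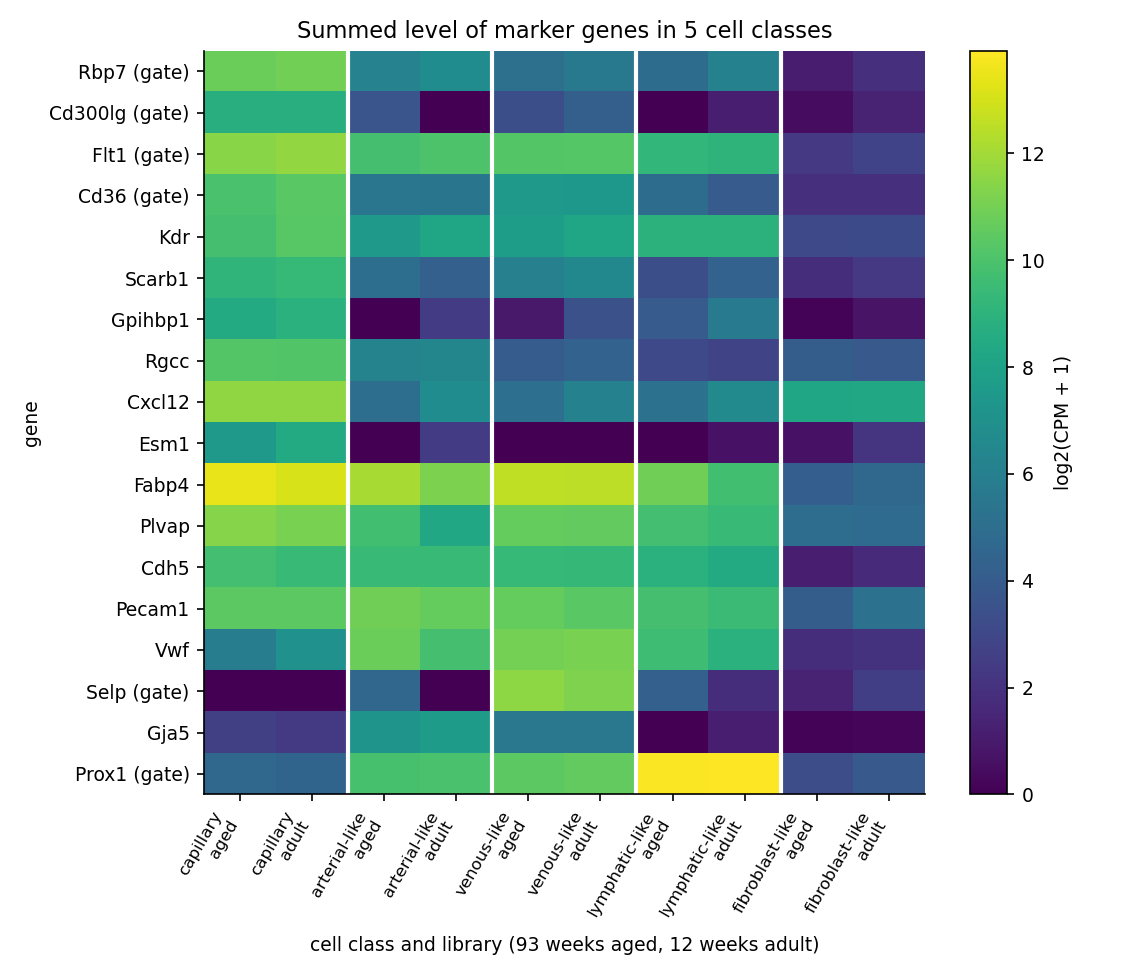
Summed level of 18 genes on the scale log2(CPM + 1), by cell class, with the aged library left of the adult library in each class. Genes marked as gate were used to choose the capillary cells. Capillary cells are high for Rbp7, Cd300lg, Cd36, Gpihbp1, Rgcc, Cxcl12 and Esm1 in both libraries, and low for Vwf, Gja5 and Prox1, which were used to choose the other classes.

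Capillary cells made up a smaller share of the aged library. They were 0.901% of aged cells (exact interval 0.693 to 1.15) and 1.97% of adult cells (1.66 to 2.32), a ratio of 0.457 (0.335 to 0.619). Cells were called female by a UMI of Xist with none of 4 Y-linked genes, and male by the reverse. Capillary cells made up 0.623% of aged and 1.73% of adult cells called female, and 0.773% of aged and 1.85% of adult cells called male. As a share of endothelial cells the difference was smaller, at 12.2% (9.50 to 15.5) of 498 aged and 16.6% (14.1 to 19.2) of 870 adult endothelial cells, a ratio of 0.740. With the shared barcodes kept in the aged table, 186 of 13969 cells passed the rule, which is 1.33%. The mix of sexes differed: 16 of 43 aged members with a call and 61 of 114 adult members with a call were female. The sort, the pool and the library differ between the ages together with age, and their parts cannot be told apart.

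The capillary cells were not uniform, and many genes differed between those with and without a UMI of Plvap. No Plvap UMI was found in 14 of 63 aged members (22.2%, exact interval 12.7 to 34.5) and in 19 of 144 adult members (13.2%, 8.13 to 19.8), and the intervals overlap. After thinning, the shares were 21.7% of aged and 13.6% of adult members. This split was chosen after the values were seen and gets no test. Members without Plvap were shallower, with median UMI totals of 3433 in aged and 4875 in adult cells, against 6287 and 6584 in members with Plvap.

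Genes for handling lipid were divided between members without and with Plvap. Of 27 measured genes for fatty acids and lipoproteins, 8 stood at least 1.5-fold higher in members without Plvap in both libraries and 2 at least 1.5-fold lower, with 20 CPM added to each level. Over 4536 measured genes those shares were 3.59% and 6.86%. The median log2 ratio of the list, without over with Plvap, was -0.04 in the aged and 0.28 in the adult library. Lipoprotein lipase, Lpl, stood at 627 CPM in aged and 578 in adult members without Plvap, against 31.9 and 32.6 in members with it. Fabp4 stood at 22545 and 20686, against 9099 and 7473. Gpihbp1 stood at 965 and 918, against 239 and 430. Alongside these stood Car4, a carbonic anhydrase of the capillary surface, at 306 and 144, against 9.58 and 20.3. Pparg, the nuclear receptor that drives Fabp4 and Cd36, stood at 306 and 340, against 51.1 and 84.4, and Cd36 itself at 1994 and 2321, against 750 and 1182. The rule admits no member without a Cd36 UMI, and members without Plvap were shallower. The Cd36 levels are therefore not independent of how the cells were chosen. Claudin-5, the tight-junction protein encoded by Cldn5, stood at 981 and 1125 in members without Plvap, against 543 and 108 in members with it. Some arterial markers were also higher without Plvap. Gja4 stood at 466 and 113, against 44.7 and 51.8, and Sema3g at 193 and 103, against 25.5 and 10.1. Fbln5 stood at 225 and 155, against 12.8 and 16.9. Sox17 was mixed, at 273 and 299, against 447 and 262. Other arterial genes are not given for this split.

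Several of the leading capillary genes stood higher in members with Plvap. No Esm1 UMI was found in either library among members without Plvap, while those with Plvap stood at 214 CPM in aged and 407 in adult cells. Penk stood at 16.1 and 20.6 in members without Plvap, against 418 and 644 in those with it. Itm2a stood at 0 and 61.9, against 571 and 400. The prostaglandin transporter gene Slco2a1 stood at 0 and 41.3, against 536 and 338. Kdr was nearer in level, at 482 and 609, against 993 and 1324, and the lipoprotein receptor gene Scarb1 stood at 209 and 196, against 623 and 691.

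**Figure D2:**
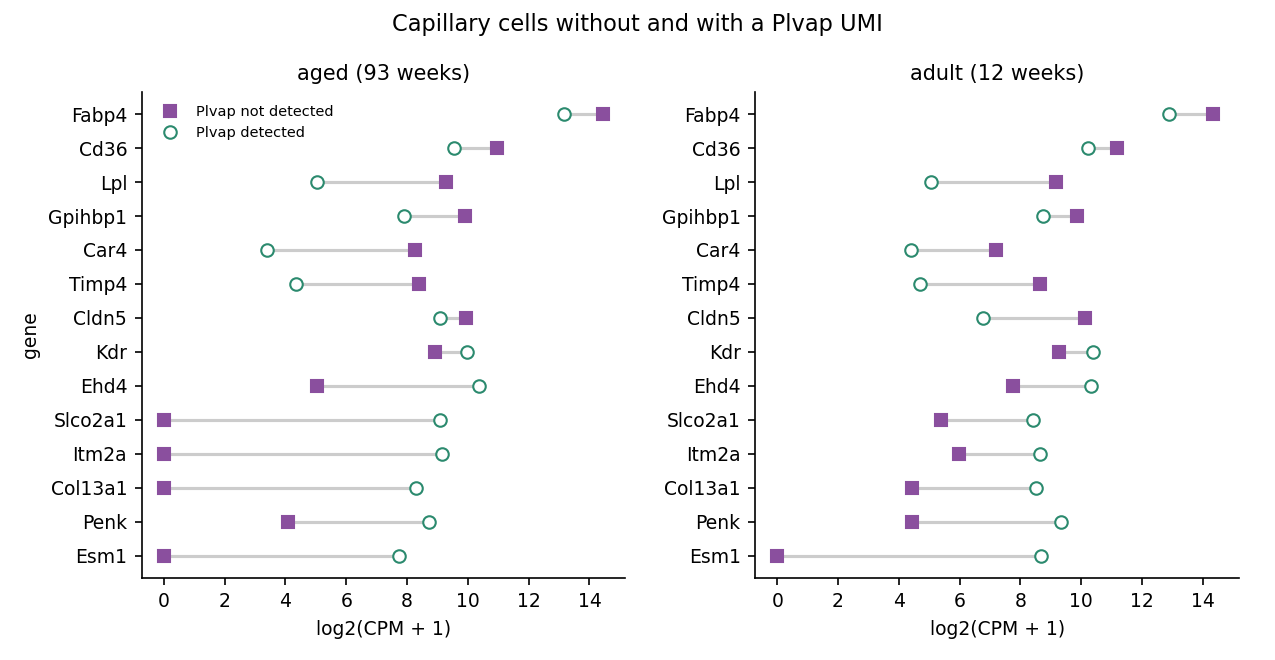
Levels of 14 genes in capillary cells without (squares) and with (open circles) a Plvap UMI, on the scale log2(CPM + 1), in the aged library on the left and the adult library on the right. Fabp4, Cd36, Lpl, Gpihbp1, Car4, Timp4 and Cldn5 lie higher without Plvap in both libraries, and Kdr, Ehd4, Slco2a1, Itm2a, Col13a1, Penk and Esm1 lie higher with it. Cd36 was a term of the rule that chose the cells.

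The age comparison covered 4537 genes that had a UMI in at least 10% of members of a library and at least 50 UMIs over both. Ratios are log2 of aged over adult CPM, with 1 added to each. The median ratio over all measured genes was 0.02, with quartiles of -0.26 and 0.27. At least a 2-fold difference was found for 48 genes (1.06%) with more RNA in aged members and for 134 (2.95%) with less. The counting interval of the ratio lay clear of 0 for 48 and 123 of them. With the shared barcodes kept in the aged table, 11 genes were 2-fold higher and 10 were 2-fold lower, and 123 of the 186 aged cells behind those ratios then carried a barcode of the adult table.

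Among the 12 genes with the highest ratios, the vascular genes were Apold1, Cldn5, Akap12, Angptl4 and Rcan1. Apold1, an endothelial gene induced by injury and ischaemia, had 528 UMIs in aged and 458 in adult members, or 1406 and 465 CPM, a log2 ratio of 1.60 (1.41 to 1.78). The ratio was 1.76 in members with Plvap and 0.35 (-0.28 to 0.98) in those without it. In the arterial-like, venous-like and lymphatic-like cells it was lower in the aged library, with log2 ratios of -0.46, -0.41 and -0.33, and that contrast between classes was not tested. Cldn5 had 615 CPM in aged and 208 in adult members, a log2 ratio of 1.56 (1.29 to 1.84). The ratio was 2.32 in members with Plvap and -0.20 (-0.67 to 0.27) in members without it, which held 109 of the 205 adult UMIs. It was 0.92 when the Cd36 term was dropped from the rule, 0.92 with the shared barcodes kept in the aged table, 2.23 among members with all 3 of Rbp7, Cd300lg and Flt1, and 2.78 and 1.13 in members called female and male. Its UMIs came from 18 of 63 aged and 22 of 144 adult members. After thinning it was detected in 23.3% of aged and 12.1% of adult members, against 0.1% and 0% of fibroblast-like cells, whose share of 0 allows up to 0.300%, taken as 3 of 1000 cells.

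Few cells carried some of the high ratios. Akap12, a scaffold for protein kinase A that supports the endothelial barrier, stood at 573 CPM in aged and 130 in adult members, a log2 ratio of 2.13, but 85 of its 215 aged UMIs were in 1 cell. Without the cell of each library that held most of its UMIs, the ratio was 1.61, and it was 2.62 in members with Plvap and -0.25 in those without. Angptl4, a secreted inhibitor of lipoprotein lipase, stood at 112 and 38.6, a log2 ratio of 1.51, and was not led by 1 cell, with at most 4 of its 42 aged UMIs together. Its ratio was 2.53 in members called female, from 9 aged and 6 adult UMIs, and 0.38 (-0.68 to 1.39) in members called male. Rcan1, an inhibitor of calcineurin induced by VEGF, stood at 280 and 96.4, a log2 ratio of 1.53, which was 0.45 without the Cd36 term, and 2.78 and 0.64 in members called female and male. Pcsk5, a proprotein convertase, had the highest ratio, 2.15, from 42 aged UMIs of which 31 were in 1 cell, and it was -0.92 among members with all 3 of Rbp7, Cd300lg and Flt1. The remaining genes were Tppp3, Ccdc34, Zbtb16, Pbdc1, Isy1 and Ap2a2, at 1.46 to 2.14, with 27 to 55 aged UMIs each.

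The 12 genes with the lowest ratios were mostly at a few UMIs in aged members. Pcsk1, the proprotein convertase that processes hormones such as proenkephalin, had 1 UMI in aged members and 81 UMIs in 18 adult members, a log2 ratio of -4.51 (-10.3 to -2.43). In the other 3 endothelial classes it had no UMI in either library. Sulf1, which trims sulfate groups from heparan sulfate, had 4 UMIs in aged and 58 in adult members, a ratio of -2.36 that was -0.65 without the Cd36 term. Also among these genes were Caprin2, Dennd2b, H2-Q6, Plscr4, Immp2l, Runx1t1, Trim69, Nfe2l3 and Rnaseh2a, with 3 to 13 aged UMIs each and log2 ratios of -2.50 to -2.04.

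**Figure D3:**
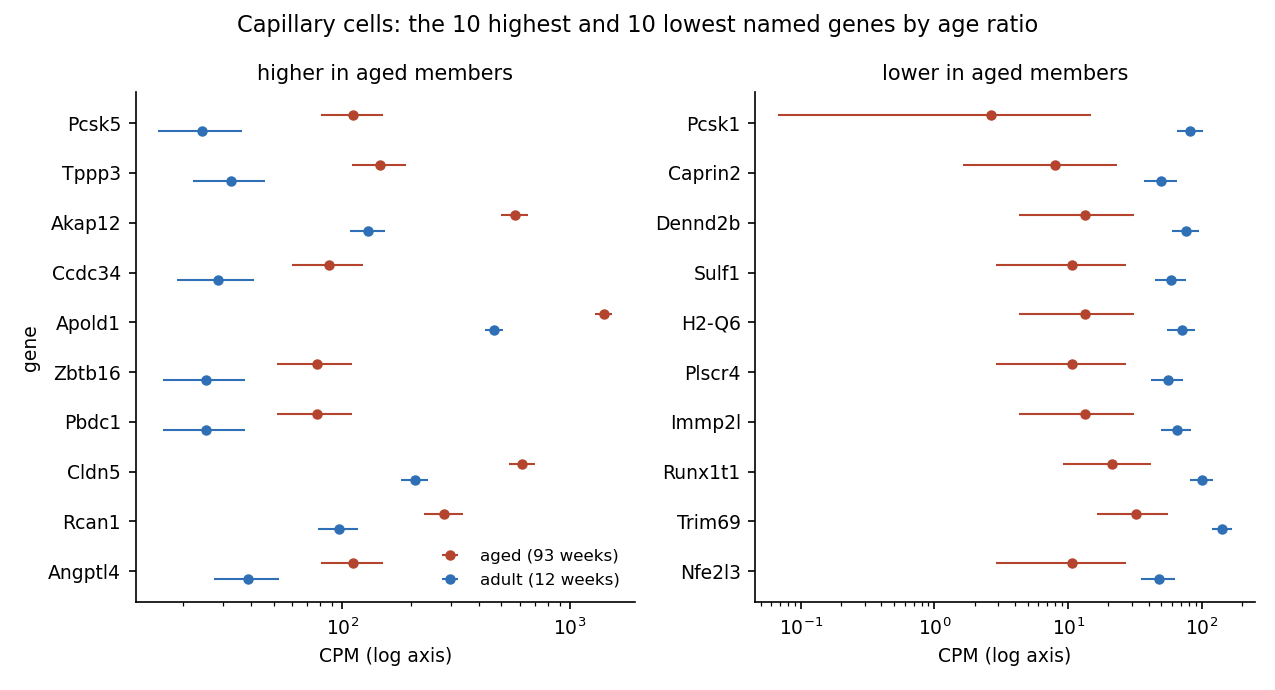
CPM of the 10 highest and 10 lowest named genes by age ratio in capillary cells, on a log axis, with the aged value above the adult value for each gene. Bars are exact 95% Poisson intervals and cover counting error only. Apold1, Akap12 and Cldn5 have the narrowest intervals among the higher genes, and the lower genes rest on 12 or fewer aged UMIs each.

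The gene lists were read at 1.5-fold, since few list genes reached 2-fold. Over all measured genes, 7.05% (320) stood at least 1.5-fold above and 10.4% (472) at least 1.5-fold below the adult level in aged members. Of 91 list genes past 1.5-fold, 87 had the same sign in members with Plvap and 68 in the fewer members without it, and 64 had it in both. Members with Plvap held 313234 of the 375422 aged and 888361 of the 985286 adult UMIs. The 91 genes were picked by their ratio in all members, which include both parts of the split. The counts of 87, 68 and 64 were each raised by that choice, and the 87 was largely set in advance. They are a description and no support for the ratios. No such share over all measured genes is given beside these counts. Of 24 measured genes that mark capillaries and were not in the rule, 2 were higher (Car4 and Lpl) and 1 was lower (Ramp3), with a median log2 ratio of 0.05. Neither higher gene was higher throughout: Car4 was at -1.01 in members with Plvap, from 3 aged and 18 adult UMIs, and at 1.08 in those without it, and Lpl was at -0.03 and 0.12. Kdr stood at 908 CPM in aged and 1253 in adult members, a log2 ratio of -0.46. Fabp4 stood at 11326 and 8773, a log2 ratio of 0.37, and Aqp1, a water channel, at 543 and 409.

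Genes for fatty acids and lipoproteins leaned higher in aged members. Of 27 measured genes 6 were 1.5-fold higher and 1 was lower, with a median of 0.20. Besides Angptl4, the higher genes were the mitochondrial carrier Ucp2, at 176 CPM in aged and 75.1 in adult members (log2 ratio 1.22), and Acvrl1, a BMP receptor that also takes up low-density lipoprotein, at 226 and 120 (0.91). Lpl stood at 131 and 86.3 (0.59), with ratios of -0.03 in members with Plvap and 0.12 in those without it. Members without Plvap held most of its UMIs. They were 22.2% of aged and 13.2% of adult members, with overlapping intervals. The part of this mix in the Lpl ratio was not tested. Hadhb and Lipa, which act in fatty acid oxidation and lysosomal lipid breakdown, stood at 0.62 and 0.60. Cpt1a, which admits fatty acids to mitochondria, was the 1 lower gene, at 26.6 and 46.7 (-0.79, interval -1.96 to 0.20). The adipocyte sum given above was also higher in aged members, but it came mostly from Car3, with 12 aged and 0 adult UMIs. Adipoq had 2 and 0 UMIs, Cfd 2 and 2, and Cidec 0 and 1, while Plin1, Adrb3 and Retn were at 0 in both libraries.

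Angiogenic signalling was mixed. Of 16 measured VEGF and angiopoietin genes 2 were higher and 1 was lower, with a median of -0.08. The lower gene was Esm1, with a log2 ratio of -1.04 (-1.44 to -0.66), and the higher ones were Angptl4 and the phosphatase Ptpre (1.16). In the Notch list 2 of 9 genes were lower and none was higher, with a median of -0.22. These were the ligand Dll4, at 61.3 CPM in aged and 110 in adult members (-0.83), and the target Hes1, at 160 and 275 (-0.78). Among members called female those ratios were 0.13 and -0.19, and among members called male -1.40 and -1.44. Hes1 was at -1.28 in members with Plvap and at 1.25 (0.26 to 2.30) in those without.

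The BMP and TGF-beta list had 4 of 15 genes lower and 1 higher, with a median of -0.10. Tgfbr2, the receptor that binds TGF-beta first, stood at 149 CPM in aged and 308 in adult members, a log2 ratio of -1.04 (-1.48 to -0.63). The target genes Id3, Id2 and Id1 stood at -0.92, -0.66 and -0.59, with Id1 at -0.92 in members with Plvap and 1.51 (0.85 to 2.21) in those without, while the receptor Acvrl1 was the higher gene. Of 34 endothelial transcription factors 4 were lower, the 3 Id genes and Gata2 (-0.88), and 1 was higher, Sox17 (0.65), which is a factor of arterial fate. The median of that list was -0.14.

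Junction genes had the highest list median, 0.32, with 5 of 20 genes higher and 2 lower. The connexins Gja4, Gjc1 and Gja1, which form gap junctions, stood at 0.97, 0.85 and 0.74, and Cldn5 was among the higher genes too. Lower were Jam3, a junctional adhesion molecule, at -0.65, and Amotl2 at -0.77, with an interval of -1.88 to 0.17. The intervals of Cldn5 and the 3 connexins lay above 0. Gja4, which also marks arteries, was at -0.21 in members with Plvap, from 14 aged and 46 adult UMIs, and at 2.03 in those without it. The arterial markers Sema3g, at 1.42 (0.48 to 2.45), and Sox17, at 0.65, were higher in aged members too, as were the smooth muscle gene Tagln, at 1.62 (0.73 to 2.63), and Rgs5, at 0.67. Smooth muscle genes did not all go that way: Mylk was at 0.92, Myh11 at 0.34 (-2.24 to 2.62) and Acta2 at -0.68, from 2 aged and 9 adult UMIs. The 13 arterial genes summed to 1422 CPM in aged and 1095 in adult members. Their part in the junction ratios was not tested.

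Vasoactive genes had 6 of 18 higher and 2 lower, with a median of 0.31. The median was -0.20 in members called female and 0.48 in those called male. It was 0.41 in arterial-like, 0.30 in venous-like, 0.24 in lymphatic-like and 0.00 in fibroblast-like cells. Ednrb, an endothelin receptor that in endothelium promotes nitric oxide release, stood at 543 CPM in aged and 294 in adult members (0.88). Ddah2, which breaks down an inhibitor of nitric oxide synthase, stood at 194 and 110 (0.82). The sphingosine receptor S1pr1 (0.69), Gch1 (0.68), the scavenger receptor Ackr3 (0.72) and endothelin-1, encoded by Edn1 (0.72), were higher too, but all 4 had ratios below 0 among members called female. The receptor for calcitonin-related peptides, Calcrl, stood at 176 and 300 (-0.77), and its partner Ramp3 at -0.60.

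In the caveolae and fenestrae list 1 of 18 genes passed 1.5-fold, the insulin receptor gene Insr, at 152 CPM in aged and 278 in adult members (-0.87). Plvap stood at 2701 and 2188. Of 10 coagulation genes S100a10 (0.80) and its partner Anxa2 (0.64), which bind plasminogen at the cell surface, were higher, and Vwf (-1.21) was lower, but it was at -3.15 in members called female and 2.19 in those called male. A single adult cell held 32 of the 129 adult Vwf UMIs, and a single aged cell held 12 of the 21 aged UMIs. Of 30 basement membrane and matrix genes 3 were higher and 2 lower, with a median of 0.03. Sparc, a matrix protein made by many vessel cells, stood at 1753 and 1071 (0.71), and the protease Adamts9 at 1659 and 920 (0.85). Igfbp5 (-1.18) and the laminin chain gene Lama3 (-1.04) were lower. The pericyte markers given above were higher in aged members as well.

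**Figure D4:**
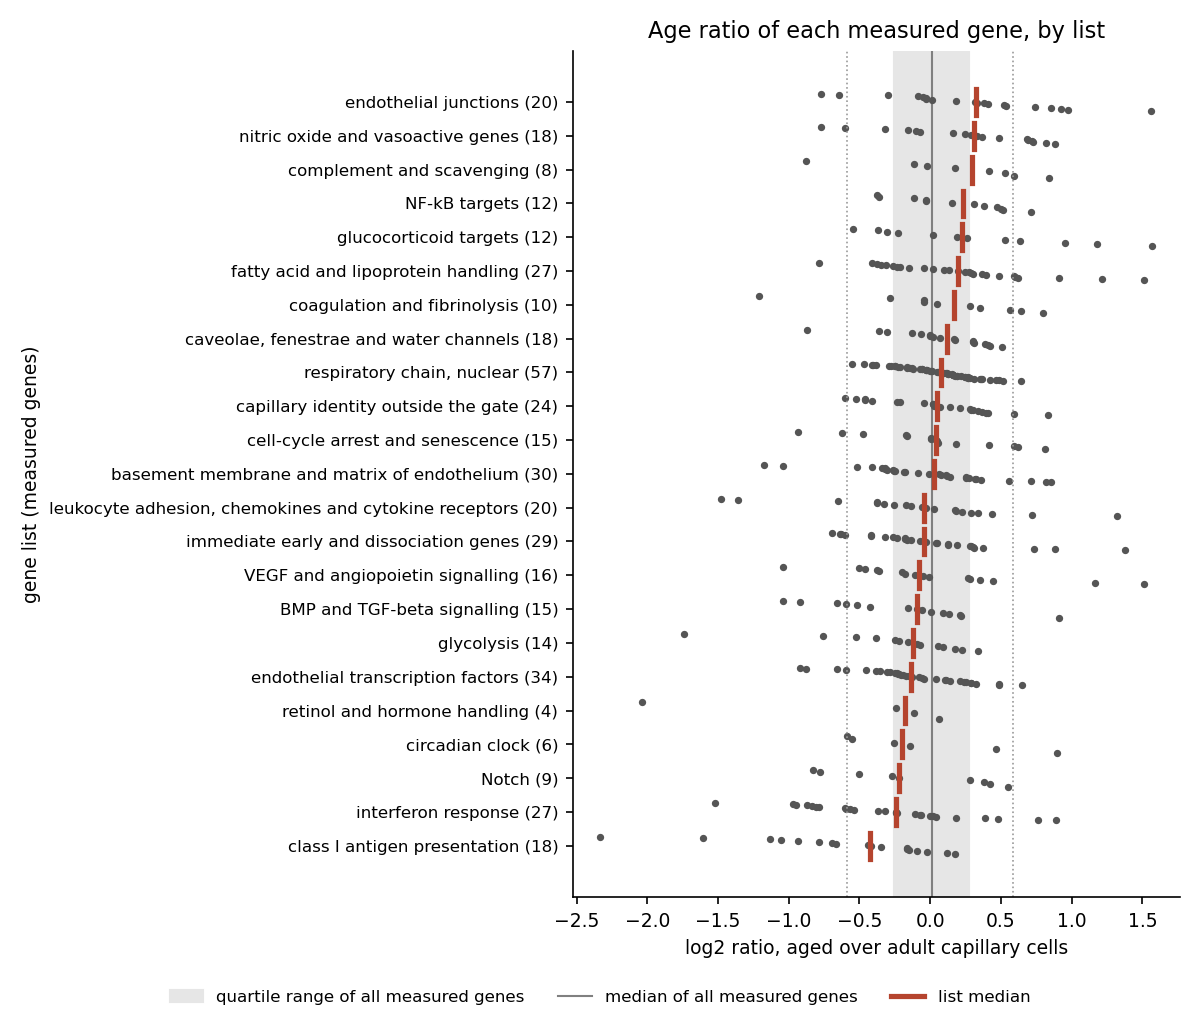
Log2 age ratio of each measured gene (dots) in 23 lists that have at least 4 measured genes, with the list median as a vertical bar, the number of measured genes in brackets, and 1.5-fold marked by dotted lines. The grey band runs between the quartiles of all measured genes, from -0.26 to 0.27. Endothelial junctions have the highest median (0.32) and class I antigen presentation the lowest (-0.43).

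Antigen presentation was the list with the lowest median. Of 18 measured class I genes 8 were 1.5-fold lower in aged members, 4 of them by 2-fold, and none was higher, with a median of -0.43. B2m, the light chain of every class I molecule, stood at 842 CPM in aged and 1752 in adult members, a log2 ratio of -1.06 (-1.24 to -0.88). Per cell, the median was 6.36 B2m UMIs per 10000 in aged and 16.4 in adult members. The heavy chain H2-K1 stood at 607 and 1333 (-1.13), and H2-D1 at 1665 and 2698 (-0.70). H2-Q6, H2-Q7 and H2-Q4 stood at -2.33, -1.61 and -0.93, but these near-identical genes can share reads, so their separate values are uncertain. The immunoproteasome gene Psmb9 stood at -0.79 and H2-T23 at -0.66, with 0.37 in members called male. Tapbp and the chaperones Calr, Canx and Pdia3 lay between -0.16 and 0.12.

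Class I genes were lower in the aged library in other classes too. B2m had log2 ratios of -0.85 in arterial-like, -1.57 in venous-like, -1.29 in lymphatic-like and -1.11 in fibroblast-like cells. The list median was -0.46, -1.11, -1.08 and -0.56 in the same order of classes. With the shared barcodes kept in the aged table, the list median in capillary cells was -0.08.

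**Figure D5:**
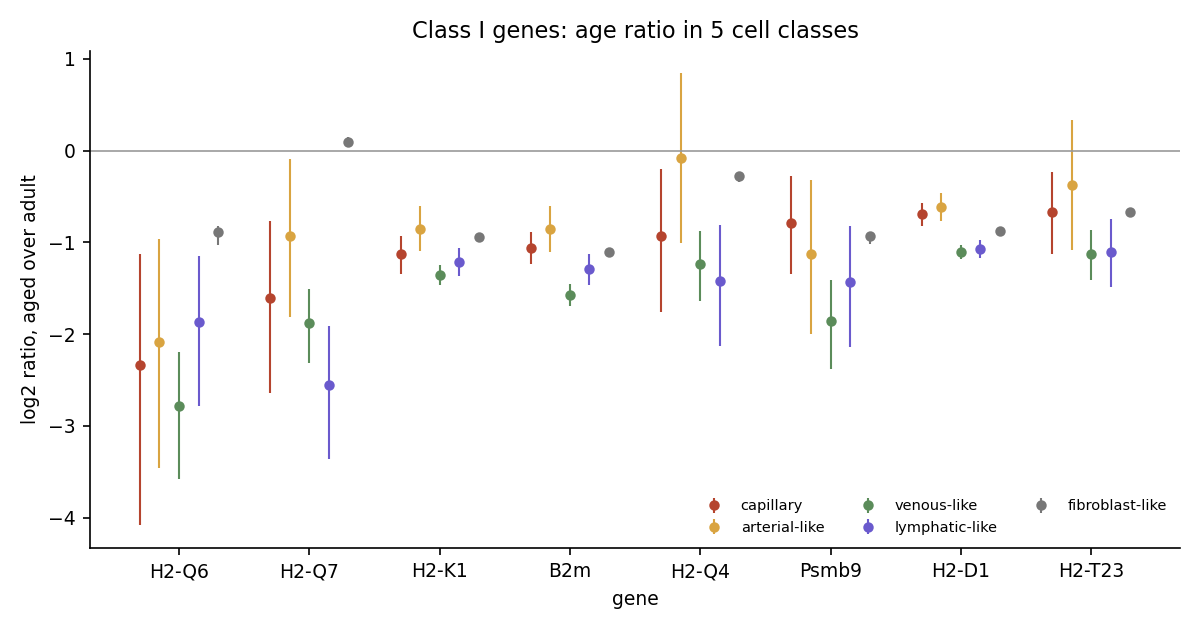
Log2 age ratio of the 8 class I genes that were 1.5-fold lower in aged capillary cells, shown for capillary cells and 4 other classes, with exact 95% intervals that cover counting error only. B2m, H2-K1, H2-D1, H2-Q6, H2-Q4, Psmb9 and H2-T23 lie below 0 in all 5 classes, and H2-Q7 lies at 0.09 in fibroblast-like cells.

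No class II gene met the measured threshold. Cd74, the invariant chain, had no UMI in 63 aged members, which allows a share of up to 4.76% of cells with a UMI, taken as 3 of 63 cells (exact upper limit 5.69%), and was detected in 10 of 144 adult members (6.94%, exact interval 3.38 to 12.4). H2-Aa and H2-Ab1 had none in aged members and were each detected in 11 adult members. In fibroblast-like cells Cd74 was detected in 0.176% of aged and 1.35% of adult cells. In venous-like cells it was detected in 4.64% of aged and 28.3% of adult cells, so the ages differed in the same direction in a larger class.

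Interferon genes were lower on balance, with 9 of 27 lower, 2 higher and a median of -0.24. The median was -0.59 in members called female and -0.09 in those called male. It was 0.16 in arterial-like cells, from 7 measured genes, -0.41 in venous-like, -0.70 in lymphatic-like and -0.65 in fibroblast-like cells. The GTPase gene Iigp1 stood at 322 CPM in aged and 624 in adult members (-0.95), but at -2.43 in members called female and 0.46 in those called male. Igtp stood at -1.52 and Rsad2, an antiviral enzyme and one of the leading capillary genes, at -0.87. Higher were Isg15 (0.76) and Ifih1 (0.89), the second with 12 of its 25 aged UMIs in 1 cell and a ratio of 0.10 without the leading cell of each library. The part of the sex mix in this list was not tested.

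Of 20 genes for leukocyte adhesion, chemokines and cytokine receptors 3 were lower and 2 higher, with a median of -0.04. Icam1, which binds leukocyte integrins, stood at 147 CPM in aged and 411 in adult members, a log2 ratio of -1.48 (-1.92 to -1.08). After thinning, an Icam1 UMI was found in 23.3% of aged and 47.1% of adult members, against 27.1% and 31.6% of fibroblast-like cells, which can also express the gene. Il6 was at -1.36 and Lifr, the receptor of leukaemia inhibitory factor, at -0.65. The chemokine gene Cxcl1 was higher, at 131 and 51.8 (1.32). Among 12 NF-kB targets only the inhibitor gene Nfkbia passed 1.5-fold, at 1534 and 935 (0.71).

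Genes induced by tissue dissociation were close to even, with 3 of 29 higher, 4 lower and a median of -0.05. Jun and Egr1 stood at -0.64 and -0.63, and Mafk at 1.38. Of 12 glucocorticoid targets 4 were higher and none lower, with a median of 0.22. They were Zbtb16 (1.57), the glutamine synthetase gene Glul (1.18), Ddit4 (0.95) and Klf9 (0.63). In members called female, Glul was at 0.00 and Klf9 at 0.09.

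Arrest and respiratory chain genes had medians near that of all measured genes. Of 15 cell-cycle arrest and senescence genes 3 were higher and 2 lower, with a median of 0.04. Cdkn1a, which encodes p21, stood at 1185 CPM in aged and 771 in adult members (0.62), with 0.19 in members called female and 0.70 in those called male. Nuclear genes of the respiratory chain had 1 of 57 past 1.5-fold and a median of 0.07. Of 14 glycolysis genes none was higher and 2 were lower, Ldhb (-1.74) and the lactate transporter gene Slc16a1 (-0.76), with a median of -0.12. Of 8 complement and scavenging genes Lrg1 (0.84, and -0.13 in members called female) and Cd59a (0.59) were higher and Serping1 (-0.88) was lower, with a median of 0.30. In the clock list Cry1 (0.90) was higher and Hlf (-0.59) lower among 6 genes, with a median of -0.20. The 1 measured gene of the proliferation list had a log2 ratio of 0.14.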

How the data were processed

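Droplet 3′ single-cell RNA was measured in sorted cells, as 1 library per age, each from a pool of mice. Seurat 5.0.3 is the tool named in the submitters' processing notes, which also list the builds GRCm39 and mm10 with no role, so coordinates were left out. Which aligner, counter and cell filters were used is not stated in the labels. Values as deposited are on a natural log (ln) scale, of 1 plus UMIs per 10000 in a cell, which was found from the numbers, and whole UMIs were recovered from them within a tolerance of 0.01. UMIs of a class were summed and divided by the class total. Ratios carry exact conditional binomial intervals, levels exact Poisson intervals and shares exact Clopper-Pearson intervals (python 3.11.15, numpy 2.4.6, scipy 1.17.1). The ratio code was tested on simulated data. No doublet caller was run. Alternatives left out the deepest members and members with UMIs of another type.

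Venous-like cells were endothelial cells with UMIs of Selp and Vwf, lymphatic-like cells had Prox1 at 4 or above, arterial-like cells had at least 2 of Gja5, Sox17, Sema3g, Bmx and Stmn2, and fibroblast-like cells had Pdgfra. Named genes were the 12 highest and 12 lowest ratios with an interval clear of 0 and the same sign in members called female and male, the 15 genes highest over other endothelium in the lower of the libraries, and up to 6 genes per list past 1.5-fold. Genes of the rule, sex-linked, mitochondrial and haemoglobin genes were left out. A few further genes are named with their values because the text turns on them. The members and the lists were chosen with earlier results of these data known. Some genes that the rule names are not reported here.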

Additional observations from a re-analysis of the deposited data

Results flagged for a closer look

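Of 437 genes looked at, 12 had ratios past their counting intervals in opposite directions in different groups. The contrast itself was not tested for any of them, and each age is 1 library.

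By sex call, the log2 ratio of aged over adult was 1.83 in members called female and -2.28 in members called male for Zeb2, a transcriptional repressor. Single cells held 8 of the 22 aged and 20 of the 56 adult Zeb2 UMIs. Aged members called female held 15 of its UMIs and adult members called male 34, so both ratios lean on 1 cell. Mt1, a metallothionein, had 2.0 and -1.03, and the heat shock gene Hspa1a had 0.92 and -1.14. For Mt1, 1 adult cell held 41 of the 92 adult UMIs, and adult members called male held 60, so its male ratio leans on that cell. The other genes were lower in aged members called female and higher in aged members called male. They were Vwf at -3.15 and 2.19, Timp3 at -0.99 and 0.57, Ace, the angiotensin-converting enzyme, at -0.96 and 0.83, Cxcl12 at -0.71 and 0.33, and Ly6a at -0.62 and 0.77. The female ratios rest on 16 aged and 61 adult cells, and Vwf on 2 aged and 76 adult UMIs there. In members called male, Vwf had 19 aged UMIs, and 1 aged cell held 12 of the 21 UMIs of all aged members.

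By class, Sulf1 was at -2.36 in capillary cells and at 0.81 in the other 3 endothelial classes together. Isy1 was at 1.47 and -0.70, Ifih1 at 0.89 and -0.82, and Isg15 at 0.76 and -1.0. In aged capillary cells 12 of 27 Isy1 UMIs were in 1 cell.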

How the results depend on the processing

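With all cells of the aged table kept, 11 genes were 2-fold higher and 10 lower, and the ratio of capillary shares was 0.676. It was 0.740 as a share of endothelial cells. Thinned members gave 68 lower genes and members called male alone 80. A pseudocount of 10 CPM gave 31 higher and 82 lower. A threshold of 20 UMIs with no minimum share gave 209 and 511, and one of 100 UMIs in 20% of cells gave 16 and 42, since each changes how many genes are measured. Over the alternatives the class I median lay between -0.62 and -0.08 and the junction median between 0.12 and 0.33 where the measured genes were chosen anew. Over the genes measured in all members they were -0.65 and 0.45 in members called female. The Notch median, chosen anew, lay between -0.78 and 0.28. Pcsk5 reversed to -0.92 under the stricter rule of 3 of 3 genes. Leaving out the cell rich in haemoglobin, taking members with Plvap alone, and leaving out the cell with most UMIs of a gene were added after seeing the data, and the first pair of these changed neither count by over 1.5 times. No paired analysis was possible because each age is 1 library without a replicate number, and for the same reason no replicate could be left out. The 63 aged cells limit low genes: at fewer than 10 aged UMIs a ratio's interval spans several-fold.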
